A study of Mus musculus with 3 samples.

Results

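Open chromatin in cultured mouse hematopoietic stem cells (HSCs) treated with the mTOR kinase inhibitor AZD2014 was compared with that in cells given the solvent DMSO, by the rank of each accessible region within its own library. The comparison used 2 of the 3 libraries of the series, 1 per condition. The 17189 highest-scoring peaks of each list were kept, and peaks of the lists that overlapped by at least 1 bp were paired when each was the other's partner of largest overlap. This gave 14125 pairs, the regions described here. All cells had the genotype Mx1-Cre-/-;mTORflox/flox, so they carried the floxed mTOR gene without the Cre recombinase that would delete it. They were sorted by flow cytometry from adult mice that had received poly(I:C), a double-stranded RNA mimic, and were cultured in StemSpan SFEM medium with DMSO, 200 nM AZD2014 or 1 µM rapamycin. The drug-free arm thus shared the floxed allele, the poly(I:C) and the culture with the treated arms. ATAC-seq was run on 50000 cells per library. The sources used here do not state the duration of treatment or the number of animals. With 1 library a side there is no replicate error, and every difference below is between these libraries and carries no p-value. Drug and library cannot be told apart.

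mTOR is a kinase that acts in a pair of protein complexes, mTORC1 and mTORC2, to couple nutrients and growth factors to protein synthesis, lipid and nucleotide synthesis, autophagy and survival signalling. AZD2014 (vistusertib) blocks the kinase site and so acts on both complexes, whereas rapamycin binds FKBP12 and acts mainly on mTORC1. HSCs depend on a restrained level of mTOR activity, and its loss or excess is known to impair their quiescence and self-renewal. ATAC-seq reads where the Tn5 transposase can cut DNA, which marks active promoters, enhancers and other nucleosome-poor sites.

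The promoters of 6 genes show the kind of sequence under the largest shifts at gene starts. They are the 3 upward and 3 downward shifts of largest size, among the named gene ends, whose peaks covered an annotated start with a sequence in the table used. Each runs 5′ to 3′ from 250 bases before to 50 bases after the start, from RefSeq on GRCm38.p6, the assembly that mm10 names. Capitals mark matches, on either strand, to any of 8 motifs: CACGTG (E-box), TGACGTCA (CREB site), CCGGAAGT (ETS site), GGGCGG (GC box), the palindromic NRF1 site, TGACTCA (AP-1 site), CCAAT and TATAAA.
Cast, chr13:74808711-74809010, minus strand: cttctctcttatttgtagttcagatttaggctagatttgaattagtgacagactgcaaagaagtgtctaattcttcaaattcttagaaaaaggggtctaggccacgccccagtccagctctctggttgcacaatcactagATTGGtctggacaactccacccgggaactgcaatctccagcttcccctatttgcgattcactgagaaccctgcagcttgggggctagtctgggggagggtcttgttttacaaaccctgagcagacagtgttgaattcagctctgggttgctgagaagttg
Nr2c2ap, chr8:70131077-70131376, plus strand: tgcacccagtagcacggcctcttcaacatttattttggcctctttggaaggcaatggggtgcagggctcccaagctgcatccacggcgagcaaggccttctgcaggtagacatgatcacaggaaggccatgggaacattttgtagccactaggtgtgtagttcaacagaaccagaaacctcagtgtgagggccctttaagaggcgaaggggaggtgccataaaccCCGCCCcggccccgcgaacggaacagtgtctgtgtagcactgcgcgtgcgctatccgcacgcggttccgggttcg
Utp20, chr10:88826765-88827064, minus strand: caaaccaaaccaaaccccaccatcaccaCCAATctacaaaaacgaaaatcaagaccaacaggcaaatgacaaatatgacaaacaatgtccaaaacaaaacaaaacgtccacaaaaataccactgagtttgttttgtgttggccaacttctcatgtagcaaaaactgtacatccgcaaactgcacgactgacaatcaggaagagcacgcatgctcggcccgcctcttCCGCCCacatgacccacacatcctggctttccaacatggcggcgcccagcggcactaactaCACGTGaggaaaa
Rps6kc1, chr1:190911721-190912020, minus strand: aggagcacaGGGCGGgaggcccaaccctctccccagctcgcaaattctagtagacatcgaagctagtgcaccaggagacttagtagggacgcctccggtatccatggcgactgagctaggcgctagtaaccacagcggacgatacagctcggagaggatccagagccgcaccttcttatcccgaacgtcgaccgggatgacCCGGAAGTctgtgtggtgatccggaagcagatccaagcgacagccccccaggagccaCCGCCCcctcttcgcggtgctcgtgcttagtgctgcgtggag
Cltb, chr13:54611324-54611623, minus strand: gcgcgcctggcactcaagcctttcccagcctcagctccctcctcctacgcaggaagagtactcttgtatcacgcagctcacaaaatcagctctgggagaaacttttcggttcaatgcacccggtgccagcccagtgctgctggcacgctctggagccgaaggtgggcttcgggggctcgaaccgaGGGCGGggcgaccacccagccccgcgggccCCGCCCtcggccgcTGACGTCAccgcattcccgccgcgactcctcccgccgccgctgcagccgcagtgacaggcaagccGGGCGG
Ube2ql1, chr13:69739848-69740147, minus strand: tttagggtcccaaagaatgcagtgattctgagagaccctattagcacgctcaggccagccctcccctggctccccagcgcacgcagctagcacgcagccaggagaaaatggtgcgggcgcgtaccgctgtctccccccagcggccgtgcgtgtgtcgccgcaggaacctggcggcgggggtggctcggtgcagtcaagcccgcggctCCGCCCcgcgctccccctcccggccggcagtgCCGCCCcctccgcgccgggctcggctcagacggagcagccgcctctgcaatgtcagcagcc
The first 3 belong to genes whose peak ranked higher under AZD2014, and the last 3 to genes whose peak ranked lower. Their GC contents were 47.3%, 57.7% and 47.0% for Cast, Nr2c2ap and Utp20, and 61.3%, 68.3% and 70.7% for Rps6kc1, Cltb and Ube2ql1. The CG dinucleotide occurred 3, 17 and 12 times in the first 3 and 23, 29 and 30 times in the last 3. Over all 7079 pairs that covered an annotated start, GC content did not separate the directions in this way, as given with the promoter results.

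The deposited lists held 17189 peaks for DMSO, 21321 for AZD2014 and 18233 for rapamycin, and read depth is unknown. Shortening the AZD2014 list to the DMSO length left out 4132 peaks. The lowest score kept was 67.12 under AZD2014 and 50.01 under DMSO, and the median score was 180.7 against 123.6. Each score is a value that the authors gave the peak, without a stated unit, and served only to rank peaks within a list. A percentile of 100 is the highest score of a list, and a shift is the AZD2014 percentile minus the DMSO percentile of the same pair. Of 12 HSC marker genes, 5 had a peak at a gene end in both lists, namely Kit, Meis1, Runx1, Hlf and Mecom. No gene-end peak was listed at Tek, Procr, Erg, Fli1, Cd34 or Ly6a in either. Gene-end peaks stood in each list at 1 of 15 neutrophil and monocyte genes, 0 of 11 mast cell genes, 6 of 13 erythroid genes, 1 of 11 B cell genes, 1 of 13 T and NK cell genes and 1 of 15 non-blood genes. Megakaryocyte genes had such peaks at 5 of 12 under DMSO and 4 of 12 under AZD2014.

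The ranking of accessible regions was largely shared between the treated and the DMSO library. Of the 17189 peaks of each list, 14140 AZD2014 peaks (82.3%, 95% Wilson interval 81.7 to 82.8) and 14300 DMSO peaks (83.2%, 82.6 to 83.7) overlapped a peak of the other. Percentiles at the pairs had a Spearman correlation of 0.896 across regions, which share a library on each side and are not replicates. The median size of a shift was 6.96 points, and 8936 pairs (63.3%) lay within 10 points. A shift of at least 20 points was counted as a rank change. The AZD2014 peak ranked higher by that much in 932 pairs, a background of 6.6% of all pairs, and lower in 913, a background of 6.46%. The counts of upward and downward changes were thus nearly equal, which the comparison of ranks in lists of the same length favours by construction. With an overlap of 50% of both peaks required, 657 pairs ranked higher and 874 lower. The smallest upward shift counted was 20.01 points, at Tbc1d4, and the largest not counted was 19.99, at Wdr61. On the downward side the boundary lay between Eif4g1 at -20.004 and Lrrc59 at -19.98.

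**Figure D1:**
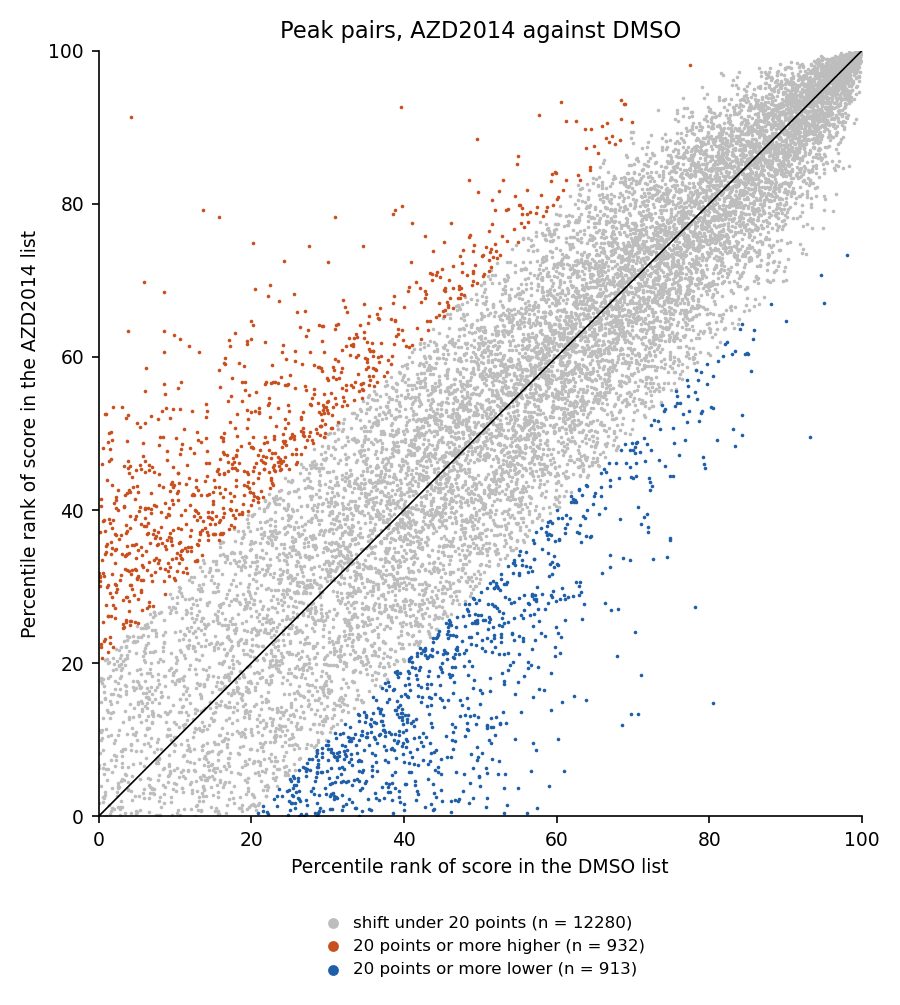
Percentile rank of the peak score within the DMSO list (horizontal) and the AZD2014 list (vertical) for 14125 paired peaks, 1 library per condition, with a line of equality and colour for shifts of 20 points or more. Most pairs lie near the line, and the 932 upward and 913 downward shifts of 20 points or more sit in the lower and middle part of the ranking.

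Rank changes came from weak and middling peaks. Among the 1369 pairs with a mean percentile of 20 to 30, 262 (19.1%) ranked higher and 267 (19.5%) ranked lower by at least 20 points. Among the 1724 pairs with a mean percentile of 80 to 90 only 5 ranked higher and 3 lower, and above 90 there was none. A pair near the top of both lists can move little, so the absence there says nothing about the size of a change in signal. The other pairings of the series gave values of similar size. Rapamycin against DMSO had 13873 pairs, a Spearman correlation of 0.890 and 993 upward and 906 downward shifts. AZD2014 against rapamycin had 14410 pairs, 0.913 and 732 and 779. These pairings share libraries, and the drugs were given at different doses, so no difference between them was tested.

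By place, regions at gene ends ranked higher more often than lower, and regions inside or between genes ranked lower more often than higher. Gene ends, meaning positions within 1 kb of the start or the end of a protein-coding gene, held 8498 of the pairs (60.2%). Of these, 444 ranked higher (5.22%, 95% Wilson interval 4.77 to 5.72, covering counting error only) and 287 ranked lower (3.38%, 3.01 to 3.78), with a median shift of 0.20 points. In gene bodies, 259 of 3083 pairs (8.40%) ranked higher and 319 (10.3%) lower, with a median of -0.66. Outside genes, 229 of 2544 (9.002%) ranked higher and 307 (12.1%) lower, with a median of -1.13. The medians are small beside the spread of shifts, whose SD was 11.5 points at gene ends and 16.0 outside genes.

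Gene-end peaks also ranked higher to begin with, at a median percentile of 70.5 under DMSO against 42.5 in gene bodies and 39.7 outside genes. Among pairs with a mean percentile of 20 to 60 the directions were the same, with 328 up and 216 down of 2681 at gene ends, 209 up and 240 down of 1825 in gene bodies, and 184 up and 242 down of 1620 outside genes. The gene-end balance depended on how peaks were paired. Upward shifts made up 60.7% of gene-end changes, but 51.9% (300 up and 278 down) when the overlap had to reach 50% of both peaks, a rule that drops pairs in which one peak is more than 2 times as wide as the other. The same criterion gave 37.6% outside genes and 37.3% in gene bodies, against 42.7% and 44.8% without it. The share at gene ends was 53.3% among the 8594 highest-scoring peaks of each list and 51.8% when peaks were ranked by width. Over the whole lists it was 92.3%, where the longer AZD2014 list moves every place upward. The part of peak width in the gene-end result was not tested beyond these values. For rapamycin against DMSO the counts at gene ends were 454 up and 342 down, and outside genes 251 and 255.

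**Figure D2:**
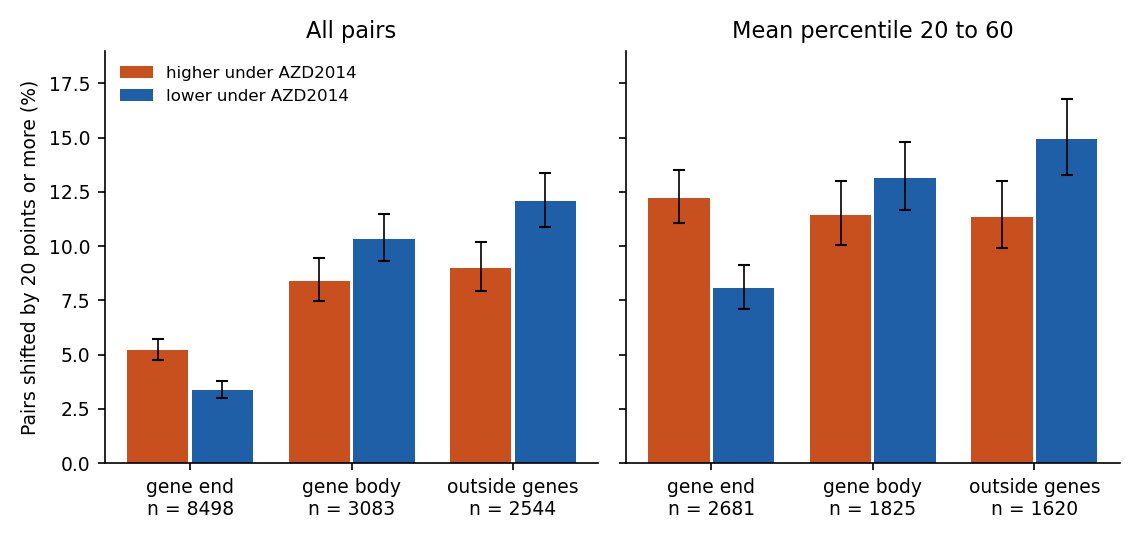
Rank shifts by place, from 1 library per condition. Bars give the share (%) of pairs at gene ends, in gene bodies and outside genes that ranked higher or lower by at least 20 points under AZD2014, among all pairs (left) and those with a mean percentile of 20 to 60 (right), with 95% Wilson intervals for counting error; gene ends show 5.22% up and 3.38% down among all pairs, the other places more down than up.

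At the starts given in the promoter table, 339 of 6719 pairs ranked higher and 211 lower, with a median shift of 0.24 points. Peaks at the other end of a gene only were 355, of which 25 ranked higher and 23 lower, with a median of -0.51. For the remaining 1424 gene-end pairs the start was not in the promoter table. The upward balance at gene ends was therefore also seen at starts, and the small set at the other ends was close to even.

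The largest upward shifts at gene ends reached 87.1 points. Of the 12 largest, 6 had an AZD2014 peak that covered more than 1 DMSO peak, so that a single region under AZD2014 stood against the separate pieces of it under DMSO. Tiparp, an ADP-ribosyltransferase induced by the aryl hydrocarbon receptor, headed the list at percentile 4.23 under DMSO and 91.3 under AZD2014. Its AZD2014 peak (chr3:65527588-65529907) also covered a DMSO peak at 86.1, against which the shift was 5.21. The SoxC transcription factor gene Sox12 was alike, at 9.85 and 62.9 with its other DMSO peak at 56.8, against which the shift was 6.09. Cast, which encodes the calpain inhibitor calpastatin, stood at 8.62 and 68.4, and its other DMSO peak at 49.0 left a shift of 19.4. Against the higher-ranked DMSO peak, 2 of these 6 kept a shift of at least 20 points. They were Oat, the ornithine aminotransferase gene, at 24.6, and Lag3, an inhibitory receptor of T cells, at 44.0.

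The other 6 upward shifts were between single peaks. The region shared by ends of Rfxank, a subunit of the RFX complex at MHC class II promoters, and Nr2c2ap (chr8:70130966-70132006) went from percentile 3.82 under DMSO to 63.3 under AZD2014, with the rapamycin peak at 38.4 in its own list. Utp20, a factor of small ribosomal subunit assembly (chr10:88826315-88827134), was at 8.51 and 63.4, with rapamycin at 35.9. Snrpb, a core Sm protein of the spliceosome (chr2:130178783-130179812), was at 10.7 and 62.3, with rapamycin at 54.1. These 3 peaks were near the bottom of the DMSO list and above the middle of the AZD2014 list. Bloc1s2, a subunit of the BLOC-1 complex of lysosome-related organelles, which shares its region with an end of Pkd2l1, went from 6.18 to 58.5. Ptgr2, a prostaglandin reductase gene, shared its peak with Zfp410 and stood at 0.998 and 52.6, with no rapamycin peak there. The region shared by ends of Helq, a DNA repair helicase, and Mrps18c, a mitochondrial ribosomal protein, was at 3.04 and 53.5. All 12 AZD2014 peaks were wider than their DMSO partners, by 1.48 to 2.67 times.

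The 12 largest downward shifts at gene ends, predicted genes left aside, ran from -42.0 to -55.7 points, and every one was between single peaks. Rps6kc1, a gene for a ribosomal S6 kinase-like protein (chr1:190911578-190912053), stood at 56.1 under DMSO and 0.433 under AZD2014, with the rapamycin peak at 46.6. Rras2, a Ras-family GTPase gene, stood at 56.7 and 5.87, with rapamycin at 30.9. Ppargc1b, a coactivator of mitochondrial genes, stood at 60.1 and 10.04, with rapamycin at 15.2. These gene-end peaks were a little above the middle of the DMSO ranking and among the weakest peaks kept for AZD2014.

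Alk, a receptor tyrosine kinase gene, went from percentile 63.9 to 15.2, and Clic1, a chloride intracellular channel gene, from 56.9 to 9.59. Zfyve9, which encodes the Smad anchor SARA, went from 62.2 to 15.7 and had no rapamycin peak. The region shared by Tppp3, a tubulin-binding protein gene, and Zdhhc1 went from 70.3 to 24.1. The rest had DMSO percentiles of 46.2 to 60.8. Cltb, a clathrin light chain gene, was at 15.0 under AZD2014, and Lbp, which encodes the lipopolysaccharide-binding protein, at 7.25. Tmbim4, Ube2ql1 and Cyth4 were at 1.98, 1.99 and 7.75. In contrast to the upward shifts, the AZD2014 peak was wider in 10 of these 12 by at most 1.45 times, and the narrowest had 0.607 times the DMSO width. The rapamycin percentile lay between the other libraries' values at 10 of the 10 downward and 9 of the 11 upward regions that had one. Since the regions were chosen for the gap between DMSO and AZD2014, that order is a description only.

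**Figure D3:**
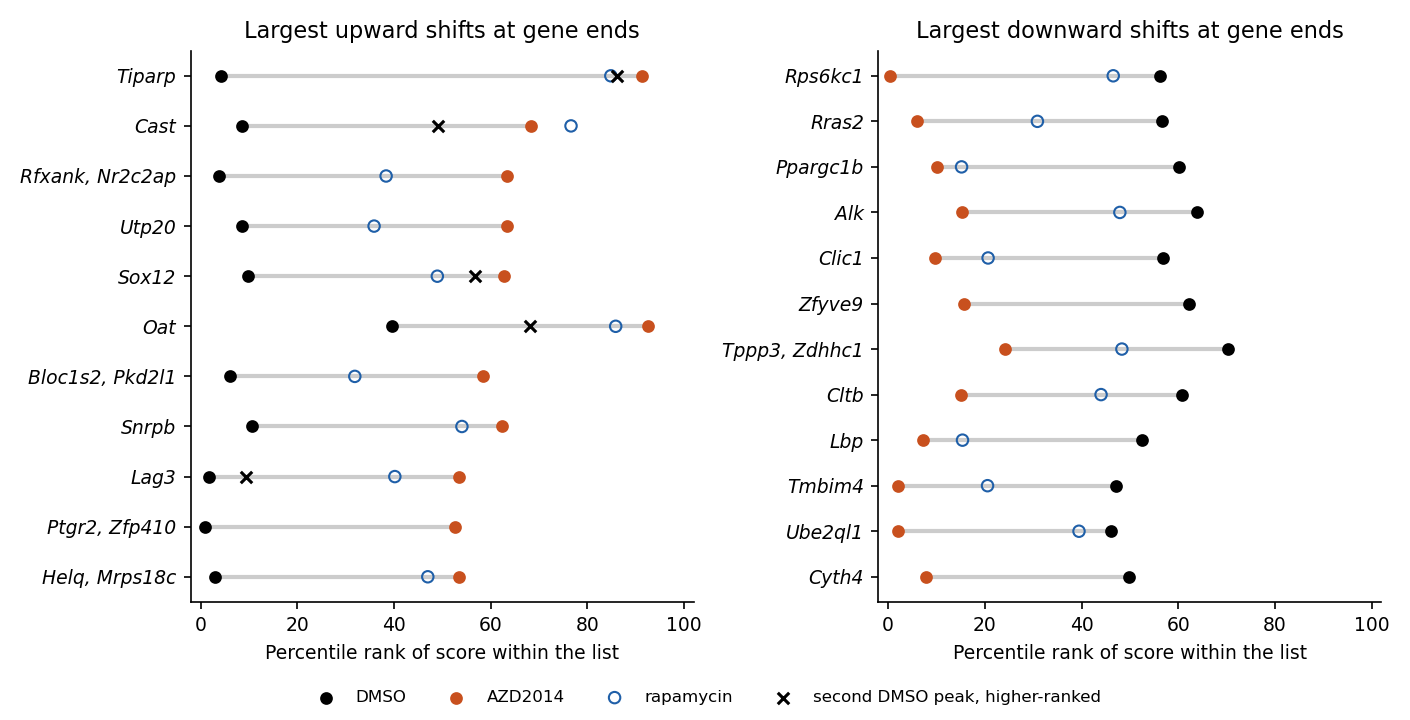
Percentile ranks in the DMSO, AZD2014 and rapamycin lists at 11 of the 12 gene-end pairs with the largest upward shift and the 12 with the largest downward shift, 1 library per point. Upward regions run from 50.4 to 87.1 points, and a second DMSO peak under the same AZD2014 peak, where there was one, is marked; downward regions run from -42.0 to -55.7.

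Inside gene bodies the largest upward shifts were at Zfp800 (13.7 to 79.2), Pigo (5.91 to 69.8), Fbxl17 (15.8 to 78.3), Trio (8.57 to 60.6) and Snx30 (0.800 to 52.6), each given as the DMSO and then the AZD2014 percentile. In 4 of these 5 the AZD2014 peak covered more than 1 DMSO peak. The higher-ranked DMSO peak at Fbxl17, an F-box protein gene, was at 82.7, above the AZD2014 peak. At Snx30, a sorting nexin gene (chr4:59844749-59845561), the pair was between single peaks. The largest downward shifts in gene bodies were at Pclo (53.1 to 0.468), Prdx4 (71.0 to 18.5), Nrxn3 (53.6 to 1.52), Samd14 (55.0 to 3.68) and Mphosph8 (78.1 to 27.3), all between single peaks. Prdx4 encodes a peroxiredoxin of the endoplasmic reticulum and Mphosph8 a reader of methylated histone H3 lysine 9. Pclo and Nrxn3 are best known as genes of the synapse.

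Outside genes, the 10 regions with the largest shifts were all between single peaks and lay 2093 to 99213 bp from the nearest protein-coding gene. The nearest gene is a label and not a target. The upward regions were nearest to Cpn2 (11.9 to 61.4), Cutc (3.64 to 52.0), Tmem125 (24.3 to 72.5), Vwf (8.59 to 56.5) and Raet1d (6.11 to 51.4). The region 11094 bp from Vwf, the von Willebrand factor gene (chr6:125540948-125541854), ranked at 14.2 under rapamycin, near its DMSO value, whereas the one nearest to Cpn2 ranked at 73.4. The downward regions were nearest to Tom1l1 (70.6 to 13.4), Memo1 (69.8 to 13.3), Ric8b (57.4 to 1.12), Srp9 (59.1 to 3.94) and Spcs3 (48.6 to 1.78). With predicted genes counted, the extreme downward shift of all pairs was -65.7, at a gene end shared by Gm40364 and Gm40363.

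Peaks were wider under AZD2014 at most regions. The median width at pairs was 857 bp against 673 bp under DMSO, the median log2 ratio of widths was 0.31 (quartiles 0.11 and 0.56), and the AZD2014 peak was the wider in 12069 of 14125 pairs (85.4%). Rapamycin peaks were wider than DMSO peaks by a median log2 ratio of 0.23, and AZD2014 peaks than rapamycin peaks by 0.08. Width followed the score within each list, with a Spearman correlation across peaks of 0.733 for AZD2014 and 0.771 for DMSO. Pairs that ranked higher by 20 points or more had a median log2 ratio of 0.73 (803 bp against 499 bp), those that ranked lower 0.18 (612 bp against 551 bp), and those within 20 points 0.30. Even the regions that lost rank were thus, at the median, somewhat wider under AZD2014. The number of peaks, the scores and the widths were all higher in the AZD2014 library, and their part in these shifts was not tested.

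Among gene-end pairs, predicted genes left aside, the 5 largest width ratios came with shifts of 3.25 to 36.8 points. The peak at Vegfa, the gene of the angiogenic factor VEGF-A (chr17:46030502-46033095), was 543 bp wide under DMSO and 2594 bp under AZD2014, 4.78 times as wide, with percentiles of 54.6 and 65.6. At Icam1, an adhesion molecule gene, the widths were 359 and 1564 bp, and at Pcgf5, a Polycomb PRC1 subunit gene, 443 and 1612 bp. Lpp widened from 429 to 1520 bp and went from percentile 1.92 to 38.8. Tgif1, a repressor in TGF-beta signalling, widened from 879 to 2982 bp and went from 23.6 to 46.3. Of these 5 AZD2014 peaks, 2 covered more than 1 DMSO peak, those of Pcgf5 and Lpp. The gene-end peaks that narrowed most were at Comtd1 (1196 to 557 bp), the uracil-DNA glycosylase gene Smug1 (576 to 281), Epb41l5 (1023 to 505), the ciliary gene Cplane2 (919 to 454) and the death receptor gene Tnfrsf21 (1278 to 667). The DMSO peak of Tnfrsf21 covered 2 AZD2014 peaks, of which the pair holds 1. All 5 ranked lower under AZD2014, with shifts of -9.97 to -32.1 points.

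A merged region was more often an AZD2014 peak over several DMSO peaks than the reverse. There were 188 AZD2014 peaks over at least 2 DMSO peaks and 28 DMSO peaks over at least 2 AZD2014 peaks. Of the 187 pairs with several DMSO partners, 83 ranked higher by 20 points or more, and 56 still did against the highest-ranked of those partners. Of 92 upward shifts of 40 points or more, 19 had several DMSO partners. Of 77 downward shifts of that size, 1 had several AZD2014 partners. Most large shifts in either direction were therefore between single peaks, although the very largest upward ones were not.

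Known regulators were described by 25 gene lists, in which 638 genes matched the annotation. A gene's value was that of its gene-end pair with the highest mean percentile. Of the listed genes, 467 had a pair, and 15 of them (3.21%) ranked higher and 10 (2.14%) lower by 20 points or more. Over all 9702 genes with a pair, which rest on 8274 distinct pairs, 485 (5%) ranked higher and 283 (2.92%) lower, with a median shift of 0.29 points. The listed genes thus changed rank no more often than genes in general. Their peaks were a little stronger, with a median mean percentile of 74.5 against 72.3. In each list below, the median shift can be read against the quartiles of all genes, -4.86 and 6.04.

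In the mTOR pathway, 35 of 43 genes had a pair, 1 ranked higher and 0 lower, and the median shift was -0.01. The one above the threshold was Deptor, an inhibitory subunit of both mTOR complexes (chr15:55111994-55112965), at 63.1 under DMSO and 83.1 under AZD2014, with rapamycin at 69.2. Its shift of 20.04 points lay at the limit. Mtor itself had one of the strongest peaks in each list, at 98.4 and 93.6. Rictor, the defining subunit of mTORC2, was at 61.7 and 60.03. Rptor, the defining subunit of mTORC1, was just under the threshold at 29.7 and 49.6, and its other 2 pairs, inside the gene, ranked higher by 12.4 and 6.63 points. Gene-end peaks at Tsc2, a brake on mTORC1, and at Irs1 and Grb10, adaptors of insulin receptor signalling, were in the AZD2014 list alone. These peaks stood at percentiles 46.3, 26.1 and 14.8.

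Among MAPK, MNK and CREB genes, 35 of 37 had a pair, 1 ranked higher and 0 lower, with a median shift of 0.70. Crtc2, a coactivator of CREB (chr3:90264803-90266614), went from 68.8 to 93.1, with rapamycin at 85.8. The kinases that phosphorylate eIF4E were steady, with Mknk1 at 79.2 and 80.9 and Mknk2 at 96.0 and 91.8. A pair inside Mknk1 came near the threshold, from 30.3 to 50.1. Creb1 was at 92.2 and 85.8. Of the immediate early genes, which respond fast to signals, 20 of 23 had a pair and 0 passed 20 points in either direction. Peaks at Fosl1 and Nr4a3 were in the AZD2014 list alone, at percentiles 11.9 and 5.47.

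For protein synthesis, 73 of 76 cytosolic ribosomal protein genes had a pair, and 2 ranked higher and 2 lower, with a median shift of -0.51. Rpl37a (18.7 to 56.7) and Rps28 (34.3 to 56.5) were among the higher, and Rps4x (49.1 to 16.7) among the lower. Of 38 genes for Myc partners and translation factors, 32 had a pair, and the one past the threshold was Eif4g1, the scaffold of the cap-binding complex, at 84.3 and 64.3, a shift of -20.004 that lies at the limit. Myc was at 52.4 and 55.1. Gene-end peaks of ribosomal protein genes thus showed no common direction, although mTORC1 is known to control translation of the mRNAs of these genes.

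Among autophagy and lysosome genes, 30 of 33 had a pair. Ulk2, a kinase that starts autophagy, went from 29.4 to 64.0, and Lamp1, a lysosomal membrane protein, from 62.9 to 37.0. Of the ATF4 and integrated stress genes, 21 of 24 had a pair and Trib3, a pseudokinase target of ATF4, went from 40.7 to 20.3. Among glycolysis and hypoxia genes, 21 of 27 had a pair, and Gpi1, a glycolytic isomerase, went from 51.2 to 9.99. Its peak was wider under AZD2014 (918 bp against 562 bp) in spite of the lower rank. For sterol and fatty acid synthesis, 23 of 27 had a pair, and the desaturase gene Scd2 went from 62.4 to 41.3. In these 4 lists 1 gene ranked higher and 4 lower in all, and the medians ran from -1.89 to 0.72.

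Respiratory chain and mitochondrial genes had a pair at 34 of 36, with 2 higher and 2 lower and a median of -0.14. The complex I subunit gene Ndufs3 went from 4.06 to 45.8, with rapamycin at 61.5, and the ATP synthase gene Atp5o from 15.8 to 43.0, with rapamycin at 58.9. Ndufb8, another complex I subunit gene, went the other way, from 48.7 to 13.1, as did Ppargc1b, described above. Genes of the same complex therefore shifted in opposite directions.

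The stem cell programme held shifts in both directions. Of 28 HSC transcription factor genes, 17 had a pair, 3 ranked higher and 0 lower by 20 points, 10 shifts were positive and 7 negative, with a median shift of 2.502 and a range of -18.3 to 31.997. Prdm16, needed for HSC maintenance (chr4:154635491-154636710), was at 10.3 and 42.3 and had no rapamycin peak. Hoxb4, a driver of HSC expansion, was at 28.7 and 50.1, with rapamycin at 16.6. Ikzf2, an Ikaros family gene, was at 58.2 and 78.4, just past the threshold, and its peak was narrower under AZD2014 (938 bp against 1019 bp). Peaks at Spi1, Hoxa5 and Hoxa10 were in the AZD2014 list alone, at percentiles 19.4, 15.0 and 0.820. Those at Lmo2 and Gfi1b were in the DMSO list and not in the shortened AZD2014 list, at 35.0 and 16.4. Only the AZD2014 list was shortened, so a weaker AZD2014 peak may have been left out there.

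Kit, the receptor of stem cell factor, was at 55.9 under DMSO and 40.8 under AZD2014, and Meis1, a cofactor of HOX proteins, at 26.3 and 12.9. Hlf, a factor of HSC identity, was at 64.6 and 46.3, and Bmi1, a Polycomb gene needed for self-renewal, at 70.5 and 53.1. Runx1 was at 56.7 and 46.3, and Mecom at 66.9 and 63.1. All 5 HSC markers with a gene-end pair thus ranked lower under AZD2014, each by under 20 points. Over all genes with a pair the median shift was 0.29, so genes in general ranked lower about as often as higher. The shift of -3.74 at Mecom lay within the quartiles of all genes, -4.86 and 6.04. Tal1, a master factor of blood formation, was among the 10 HSC transcription factor genes with a positive shift, at 54.5 and 67.9. A second gene-end peak of Meis1 in the DMSO list (chr11:19018691-19019367), at percentile 41.5, had no partner, since the AZD2014 peak there scored 62.58, below the length limit. No gene-end peak was listed at Gata2, but 2 pairs close by, 1 in the gene and 1 outside, went from 36.4 to 55.2 and from 42.1 to 59.2. Among HSC surface and niche genes, 9 of 20 had a pair and 0 passed the threshold, with a median of -2.90.

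Quiescence and CDK inhibitor genes had a pair at 17 of 18, with a median of -1.75. Cdkn2a, which encodes p16INK4a and p19ARF, went from 6.13 to 40.2, with rapamycin at 33.4, whereas Cdkn1c, the gene of p57 and a quiescence factor of HSCs, went from 72.8 to 60.7. Of 32 cell cycle genes, 28 had a pair, 2 ranked higher and 0 lower. Plk1, a mitotic kinase (chr7:122158808-122159746), went from 3.87 to 52.4, with rapamycin at 16.5, and E2f2 from 19.5 to 44.7, with rapamycin at 35.5. Ccnd2, a D-type cyclin, lay under the threshold at 50.2 and 69.5. A gene-end peak at Cdk6 was in the AZD2014 list alone, at percentile 13.5, and none was listed for Ccnd1 in either. For 14 genes given whatever their values (Myc, Mtor, Rptor, Rictor, Mknk1, Mknk2, Creb1, Kit, Meis1, Gata2, Cdkn1c, Ccnd1, Ccnd2 and Cdk6), 0 pairs in the gene and 20 kb on either side shifted by 20 points. Over all pairs the shares were 6.6% higher and 6.46% lower. The windows of these genes held only 1 to 4 pairs each. Shifts of 19.9 at Rptor, 19.7 in Mknk1 and 19.3 at Ccnd2 came close. The 0 therefore does not show these genes to be steadier than others.

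Interferon response genes, a class that poly(I:C) is known to induce, had a pair at 19 of 30. Ifit2 went from 0.887 to 34.3 and had no rapamycin peak, and Isg20 from 40.3 to 10.1. Peaks at Irf7 and Ifitm1 were in the DMSO list and not in the shortened AZD2014 list. Those at Rsad2, Eif2ak2 and Psmb8 were in the AZD2014 list alone. Of 25 Bcl2 family and apoptosis genes, 16 had a pair, 12 of them with a positive shift, and the median of 3.83 was the highest among the lists with at least 5 pairs. Bbc3, the gene of the pro-apoptotic protein PUMA, was the one past the threshold, from 55.8 to 77.0, with rapamycin at 87.1. Polycomb, MLL and DNA methylation genes had a pair at 23 of 30, and 0 passed 20 points. The same was true of 13 housekeeping genes, whose shifts ran from -4.35 to 6.39.

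Of the cell type marker lists, the erythroid one had 5 pairs, with 4 negative shifts and a median of -5.54. The megakaryocyte list had 4 pairs and a median of 0.94. Neutrophil, T and NK cell and non-blood genes had 1 pair each, and mast cell and B cell genes 0. None of these pairs shifted by 20 points.

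**Figure D4:**
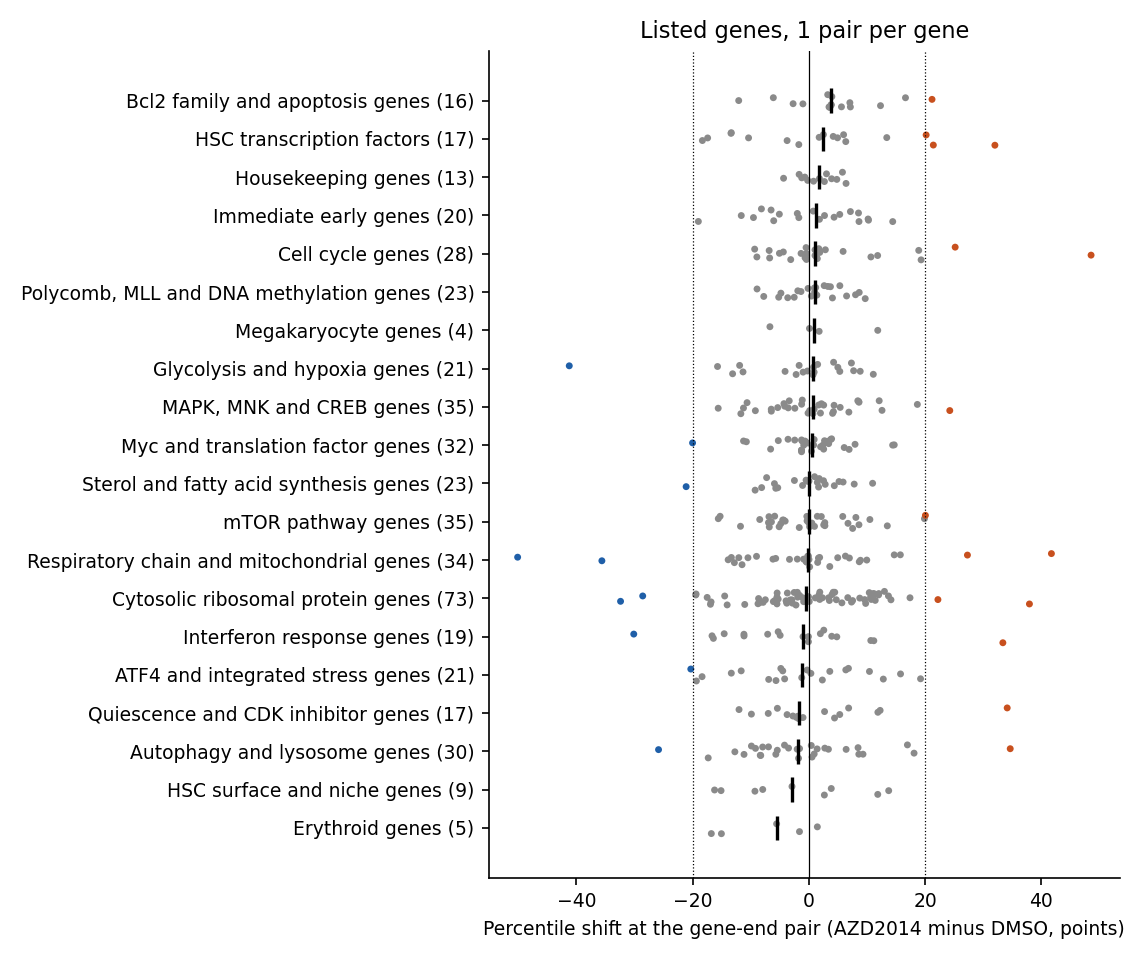
Percentile shift (AZD2014 minus DMSO) of each listed gene with a gene-end pair, for lists with at least 4 pairs (number in parentheses), with a bar at the list's median and dotted lines at 20 points either way, 1 library per condition. Most lists centre near 0, with 15 genes above and 10 below the lines among the 467 listed genes.

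Neighbouring regions mostly did not shift together. Across consecutive pairs of a chromosome, the Spearman correlation of shifts was -0.02 at 2 to 10 kb (1408 neighbours), 0.01 at 10 to 50 kb (4999) and 0.03 beyond 200 kb (2604). Under 2 kb it was -0.22 over 234 neighbours. Chromosome medians ran from -0.40 on chromosome 14 to 0.71 on chromosome 19, apart from -8.30 over 7 pairs on Y. Of 860 genes with at least 4 pairs in the gene and 20 kb on either side, 34 had upward shifts at all pairs and 52 had downward shifts at all.

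The lowest gene medians were in the Tnf and Lta neighbourhood of chromosome 17, which encodes the cytokines TNF and lymphotoxin alpha. Both genes had a median shift of -30.7 from the same 4 pairs. The peak at an end of Tnf (chr17:35200297-35200987) went from 43.6 to 17.2, the one outside genes at chr17:35218473-35219051 from 40.9 to 5.81, and the one at an end of Nfkbil1 (chr17:35219519-35220254) from 43.6 to 8.30. On either side of these 3, the peak at Lst1 was at 41.6 and 37.1, and that at the other end of Nfkbil1, shared with Atp6v1g2, at 38.1 and 37.1. The downward run therefore covered 3 adjacent pairs. Nfkbil1 came next, with a median of -26.4 over 5 pairs, all with downward shifts, that include these 3. Milr1, an immunoglobulin-like receptor gene known from mast cells, and its neighbour Polg2 followed at -19.4. Milr1's own peaks went from 32.8 to 7.10 and from 38.001 to 11.004.

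The highest medians were at Tssk4 (22.9), Zswim4 (22.2), Rad51b (20.4), Nedd8 (20.3) and Spred2 (19.6). Tssk4 and Nedd8, the latter a ubiquitin-like modifier gene, share 3 pairs in a gene-dense stretch of chromosome 14, where the region at ends of Nedd8 and Gmpr2 went from 51.5 to 77.4. Near Zswim4, 3 pairs outside genes went from 18.99 to 58.9, from 9.33 to 37.0 and from 49.1 to 71.3, while the gene's own end, a strong peak, was at 93.4 and 95.3. Spred2, an inhibitor of RAS and MAP kinase signalling, had its end at 24.0 and 48.2 (chr11:19923714-19926446) and 2 pairs inside the gene, which went from 19.8 to 34.7 and from 12.5 to 47.5. At Rad51b, a homologous recombination gene, 1 of the 4 pairs went against the rest, from 66.7 to 49.7.

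**Figure D5:**
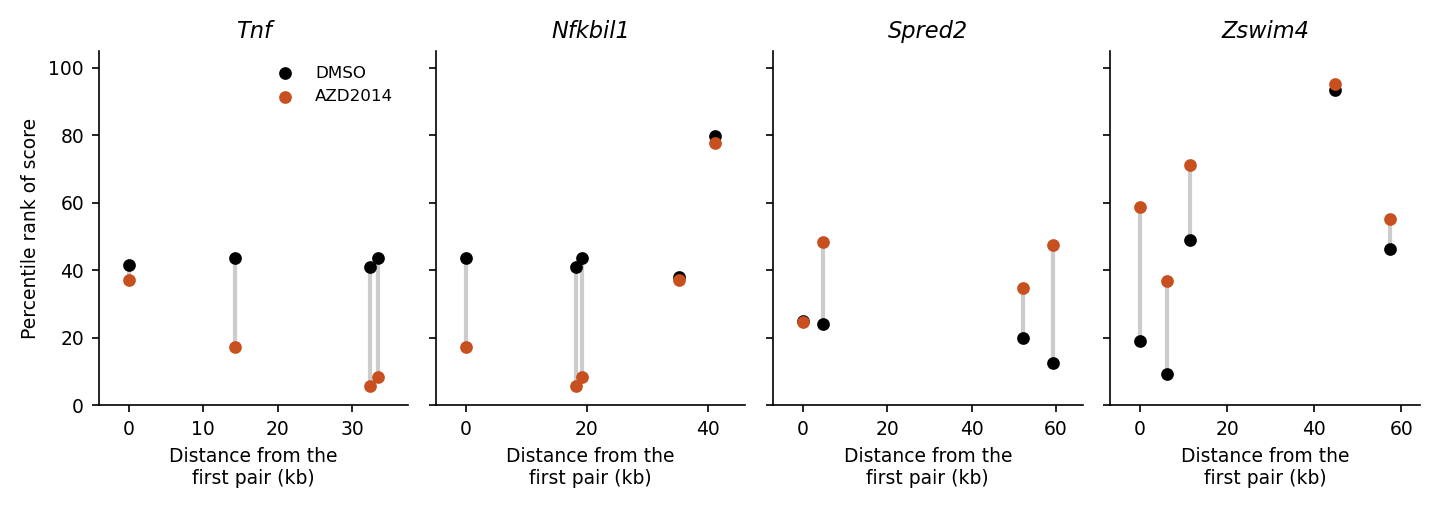
DMSO and AZD2014 percentile ranks of each pair in the windows of Tnf, Nfkbil1, Spred2 and Zswim4, by distance in kb from the first pair shown, 1 library per condition. At Tnf 3 adjacent pairs drop to between 5.81 and 17.2 while the flanking pair stays at 37.1; near Zswim4 3 pairs outside genes go up and the gene's own end stays above 93.

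Promoter composition had little relation to the direction of the shift. Promoter sequences matched 17492 of 21887 protein-coding genes, and 7079 pairs had a start from that table inside both peaks. Each counts once, with the start nearest the middle of the overlap. Of these pairs, 6378 were among the 6719 gene-end pairs near a start, and 683 lay in gene bodies, at a start inside the gene. Across these pairs the Spearman correlation of the shift was 0.01 with GC content and 0.02 with the CG count, given as descriptions. Median GC was 60.7% in the 317 pairs that ranked higher, 59.7% in the 235 that ranked lower and 62.7% in all. In 5 groups of 1349 to 1502 promoters from low to high GC content, 5.04%, 5.80%, 3.93%, 3.99% and 3.63% ranked higher, and 4.91%, 3.89%, 3.46%, 1.81% and 2.37% ranked lower. GC-poor promoters also had lower-ranked peaks, at a median mean percentile of 62.9 in the lowest group against 77.5 in the highest. Among pairs with a mean percentile of 20 to 60, a comparison added after seeing the data, the shares had no order by GC for upward shifts: 9.21%, 14.5%, 10.4%, 13.2% and 9.09%. For downward shifts they were 9.05%, 9.13%, 9.65%, 6.43% and 7.84%.

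The E-box CACGTG, a site of MYC, USF and TFEB family factors, was in 15.1% of promoters that ranked higher (95% Wilson interval 11.6 to 19.5) and in 12.8% of those that ranked lower (9.09 to 17.6). It was in 11.7% of the 1670 promoters of middling rank (mean percentile 20 to 60) within 20 points, and in 7.84% of 21238 distinct RefSeq promoters of the same length. The intervals of the 3 groups of pairs overlap each other, while that of all promoters (7.48 to 8.20) lies below them. The CREB site TGACGTCA was in 3.47%, 2.55% and 4.79% of the 3 groups, and in 2.24% of all promoters. For the GC box GGGCGG the values were 65.0%, 60% and 65.6%, with 46.2% in all promoters. CCAAT was in 30.9%, 36.6% and 35.2%, with 38.2% in all. The ETS site CCGGAAGT was in 9.46%, 8.94% and 9.04%, with 5.15% in all, and the NRF1 site in 2.21%, 3.404% and 2.81%, with 1.33% in all. TGACTCA, the AP-1 site, was in 3.15%, 3.83% and 3.17%, with 4.66% in all, and TATAAA in 7.26%, 4.26% and 6.23%, with 12.6% in all. For each of the 8 motifs, the intervals of the higher and the lower group overlapped. The set of all promoters was taken with or without a peak. Among all 7079 pairs over a start, the GC box was in 73.3% and CCAAT in 41.7%. Both shares lay above those of the 3 groups, the group within 20 points included. The E-box was in 11.4% of these pairs, the CREB site in 3.998% and the ETS site in 10.1%. The NRF1 site was in 2.74%, the AP-1 site in 2.71% and TATAAA in 5.24%. Both strands were searched, and a match is a run of letters, not a bound site.

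Regions listed in 1 library only were mostly weak. Without a partner were 3049 AZD2014 peaks and 2889 DMSO peaks, at median percentiles of 15.4 and 14.4. Percentiles of 25 or less held 73.8% and 76.8% of them, and 34 of each lay above percentile 50. The share of peaks with a partner went from 39.9% at percentiles 0 to 10 of the AZD2014 list to 99.9% at 90 to 100, and from 40.5% to 99.9% for DMSO. Of the unpaired DMSO peaks, 976 (33.8%) overlapped an AZD2014 peak below the length limit, so they were not absent from the deposited AZD2014 list. Unpaired AZD2014 peaks were at gene ends in 21.9% (95% Wilson interval 20.5 to 23.4), against 16.9% (15.6 to 18.3) of unpaired DMSO peaks. Among all peaks of the shortened lists, gene ends held 53.3% for AZD2014 and 52.5% for DMSO. Both unpaired sets were thus short of gene ends. They were also weak, while gene-end peaks of the whole shortened lists had a median percentile of 68.2 under either condition. Under AZD2014 that median was 31.8 in gene bodies and 29.0 outside genes. A rapamycin peak overlapped 45.6% of the unpaired AZD2014 peaks and 28.9% of the unpaired DMSO peaks. Over all peaks of these lists, 84.0% under AZD2014 and 81.6% under DMSO overlapped a peak of the rapamycin list cut to the same length. Median widths of the unpaired peaks were 565 bp for AZD2014 and 386 bp for DMSO. The shares at gene ends and with a rapamycin peak were not compared at like rank. The part of rank and of width in them was not tested.

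The highest-ranked unpaired AZD2014 peaks in gene bodies lay in Rhobtb1 (66.0), the histone acetylation adaptor gene Jade1 (59.3), Wdfy1 (57.3), the nuclear receptor gene Pparg (56.2), Foxred2 (54.6) and Dab2ip (54.1), with the AZD2014 percentile in parentheses. Outside genes, a peak of 2986 bp at chr16:91190946-91193931, 31619 bp from Olig2, stood far above the rest at percentile 93.7. The next were nearest to Atf7ip (60.4), Asprv1 (56.5), Tspan2 (51.6), Kdm5a (50.8) and Lat (50.3). All 12 of these regions overlapped a rapamycin peak, as did 84.0% of all peaks of the shortened AZD2014 list. They were not compared with peaks of like rank.

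The highest-ranked unpaired DMSO peaks in gene bodies lay in Prr5l (63.3), whose product binds mTORC2, and in Akap6 (54.8), Tcf4 (53.8), Klf13 (53.3), Prkag2 (52.5), a gene for a regulatory subunit of AMPK, and Cilk1 (52.4). The Prr5l peak (chr2:101762400-101763480) overlapped an AZD2014 peak below the length limit, with a score of 58.7. So did the peaks in Tcf4 and Klf13, with AZD2014 scores of 66.07 and 62.43. Outside genes the leading DMSO peaks were at chr9:3023123-3026111 (92.2), which is 309120 bp from the nearest protein-coding gene Alkbh8, and near Mid1 on X (86.8), Pdia4 (72.5), Ssty2 on Y (70.1), Lrrc4c (60.2) and Lrpprc (59.8). Whether any of them lies in repeats of high signal was not tested. The regions near Ssty2, Lrrc4c and Lrpprc overlapped a rapamycin peak, and the first 3 did not. The region near Lrpprc also overlapped an AZD2014 peak below the length limit, with a score of 56.25.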

How the data were processed

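ATAC-seq libraries of 1 DMSO and 1 AZD2014 culture were compared, with 1 rapamycin library set beside them. The submitters' processing notes name CASAVA and mm10. For every library the authors deposited a separate list of peaks, each with a score. MACS appears in the peak names. The sources used here do not state its settings, the aligner, or how duplicates, mitochondrial reads and the transposase offset were handled, all of which bear on the number and width of weak peaks. Read depth is unknown, so signal was not compared.

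Each list was shortened to its 17189 highest scores (ties: wider, then position) and scores were turned into percentile ranks, ties averaged. Pairing, the threshold of 20 points and places are given with the results; starts were written from 1. Genes came from a RefSeq table on GRCm38.p6 with 21887 protein-coding genes and no exons, so exons and introns were not separated. Wilson intervals cover counting error only. Named regions, without genes named Gm or Rik, were the 12 largest shifts each way at gene ends, the 5 each way in gene bodies and outside genes, the 5 largest width ratios each way, the 5 highest and 5 lowest medians of genes with at least 4 pairs, the 6 leading unpaired peaks per list and place, list members past 20 points, and 14 fixed genes. A few items that these rules name are not reported here. The regions, gene lists and rules were chosen with earlier results of these data known. Pairing was tested on simulated lists. Alternatives were the overlap, single partners, list length, ranks among pairs, chromosomes, gene-end window, threshold and ranking by width. Python 3.11.15, pandas 2.3.3 and scipy 1.17.1 were used.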

Additional observations from a re-analysis of the deposited data

How the results depend on the processing

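With an overlap of 50% of both peaks, the median log2 width ratio was 0.28 and the median shifts were 0.0116 at gene ends and -1.19 in gene bodies. In the whole lists, 2349 pairs ranked higher and 327 lower, the median shifts at gene ends, in gene bodies and outside genes were 4.58, 6.78 and 7.20, and 6200 AZD2014 and 1913 DMSO peaks had no partner. The 8594 highest-scoring peaks of each list gave 7644 pairs, a Spearman correlation of 0.851, a width ratio of 0.26, and 949 and 928 peaks with no partner. Ranking by width gave 1660 pairs higher and 1733 lower, with medians of -1.41, -1.36 and -2.19, so the sign at gene ends changed. A threshold of 10 points gave 2558 and 2631 pairs, and 30 points 309 and 287. Of the 80 named pairs, 9 changed sign when ranked by width: Lbp (4.44), Tmbim4 (6.61), Mphosph8 (30.2), Ikzf2 (-21.2), Gpi1 (21.0), Scd2 (27.8) and the regions near Raet1d (-5.26), Ric8b (17.3) and Spcs3 (24.4). Not every alternative gave a value for each named pair. Without one were 61 of the 80 among the 8594 highest-scoring peaks, 17 with the overlap of 50% and 11 with single partners. Fbxl17 changed sign among those 8594 peaks (-8.79) and against the highest-scoring partner (-4.39), an alternative chosen after seeing the data. The cause was not tested. Unknown depth limits all weak peaks. No paired analysis was possible because each condition has 1 library, and for the same reason no library could be left out.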
